A study of Mus musculus with 8 samples.

Results

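Wild-type (WT) mouse multipotent mesenchymal stem/stromal cells (MSCs) were compared before osteogenic induction and on day 3 of it. The genes described averaged 1 RPKM or more across the 4 WT libraries, where RPKM is the read count scaled to transcript length and to library depth. Small RNA genes of the Mir, Snor and Scarna families were left out, as were genes listed at 0 in both libraries of one state and at 20 RPKM or more in both libraries of the other. This rule kept 11754 of the 24346 genes in the table. The 20 RPKM condition removed 13 genes, of which 12 were also small RNA genes. The other, Lox, a cross-linking enzyme of collagen, was listed at 1277 RPKM in both undifferentiated libraries and at 0 in both differentiating libraries, so no change is given for it. Near the lower limit of the rule, 21 of the 153 genes from 1 to 1.1 RPKM were higher and 8 were lower by the call described below, and of the 138 genes from 0.9 to 1 RPKM, just outside it, 27 were higher and 11 lower.

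The series holds strand-specific RNA sequencing of MSCs from WT and Dnmt3l knockout (KO) littermates on a C57BL/6 background, each undifferentiated and differentiating, with 2 libraries in each of the 4 groups. Dnmt3l encodes a cofactor of de novo DNA methyltransferases. Marrow and minced bone of the femur and tibia came from 3 female mice of 8 to 16 weeks for each genotype. The cells of each genotype were mixed, cells carrying CD11b or CD45 were depleted, and all cultures were at passage 4. The undifferentiated cells grew in medium with 20% serum. The differentiating cells received medium with 10% serum, 0.1 µM dexamethasone, 10 mM glycerophosphate and 50 µM ascorbate-2-phosphate. Serum, the 3 inducing agents, and the days in culture all changed between the states and cannot be told apart. Per the paper's methods, induction began once the cells were confluent. The density of the undifferentiated cells at harvest is not stated, so cell density may also have differed. Separate cultures are not stated for the 2 libraries of each group, so the p-values measure the spread between these libraries, which may be technical.

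MSCs are adherent stromal cells that can form bone, cartilage and fat cells in culture. In the osteogenic cocktail, dexamethasone activates the glucocorticoid receptor, a transcription factor that binds DNA and switches on a known set of target genes in most cell types. Ascorbate is needed for collagen hydroxylation, and glycerophosphate supplies phosphate for mineral. Mature osteoblasts are marked by osteocalcin and by a mineralizing matrix, which form late in such cultures.

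The 4 WT libraries were scaled to about 48900000 to 67000000 reads, as re-estimated from the steps between low RPKM values. At that depth, and with a fixed allowance for fragment length, 1 RPKM on a transcript of 2000 nucleotides corresponds to about 87.8 to 120.3 reads. The differentiating replicate 1 library was the deepest, and the other 3 lay between 48900000 and 51300000 reads. The median RPKM of the 11754 genes was 10.6 to 10.9 in all 4 libraries. Replicates differed by more than sampling noise, with a chi-square per gene of 4.15 between the undifferentiated and 8.12 between the differentiating libraries. All 16 stromal markers listed (among them Pdgfra, Thy1, Eng and Prrx1) averaged over 1 RPKM across the 4 libraries, although Nes, given below, was under it after induction. Of the depleted antigens, Ptprc, encoding CD45, was at 0.0808 to 0.127 RPKM, and Itgam, encoding CD11b, at 0.0908 and 0.139 RPKM before and 0.293 and 0.356 RPKM after induction. The myeloid lysozyme gene Lyz2 stood higher, at 12.8 and 13.4 RPKM before and 22.9 and 26.5 RPKM after (0.90 ± 0.09), and the macrophage gene Cd68 was at 1.36 and 1.85 and then 2.24 and 2.79 RPKM (0.62 ± 0.16). Eef1a1, Col1a2 and Malat1, which stromal cells express abundantly, were listed at 0 in every WT library, so a value of 0 in this table can be a failed estimate.

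The response was broad but mostly small. By limma over all 15342 genes averaging 0.1 RPKM or more in the 8 libraries, 966 of the 11754 genes were higher and 530 were lower after induction, where a call required a change of over 2-fold (a log2 fold change beyond 1) and a Benjamini-Hochberg adjusted p under 0.05. Among all genes tested, 9.69% were called higher and 4.63% lower. Without the fold limit, 8501 of the 11754 genes passed the adjusted p, against 64.4% of all genes tested, and 5269 of the 8501 changed by less than 1.5-fold. The median log2 fold change was -0.04 with 90% of genes between -0.97 and 1.45, and the median standard error was 0.06. The rises reached further than the falls: 336 of 966 rises and 97 of 530 falls were over 2 log2 units, and 39 rises and 1 fall were over 5. Of the 966 higher genes, 254 averaged under 1 RPKM before induction, and of the 530 lower genes, 92 averaged under 1 RPKM after it. Such genes met the rule only through the state in which they were high. All 1496 called genes had libraries of the 2 states that did not overlap, as did 88.7% of the 11754 genes. The share of higher genes among those called was 64.6%, and it was 58.6% after quantile normalization. Over all genes tested the same shares were 67.7% and 56.4%. The most abundant genes in both states were the small noncoding RNA genes Rmrp (47801 and 45456 RPKM before and 44983 and 43243 RPKM after) and Rpph1 (42780.0 and 37951 and then 44065 and 43747 RPKM). Among protein genes, S100a4, a calcium-binding protein, had 4197 and 4403 RPKM before and 6618 and 7089.9 RPKM after induction (0.67 ± 0.13), while Actb was at 4215 and 4314 and then 2539 and 2747 RPKM (-0.69 ± 0.10).

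**Figure D1:**
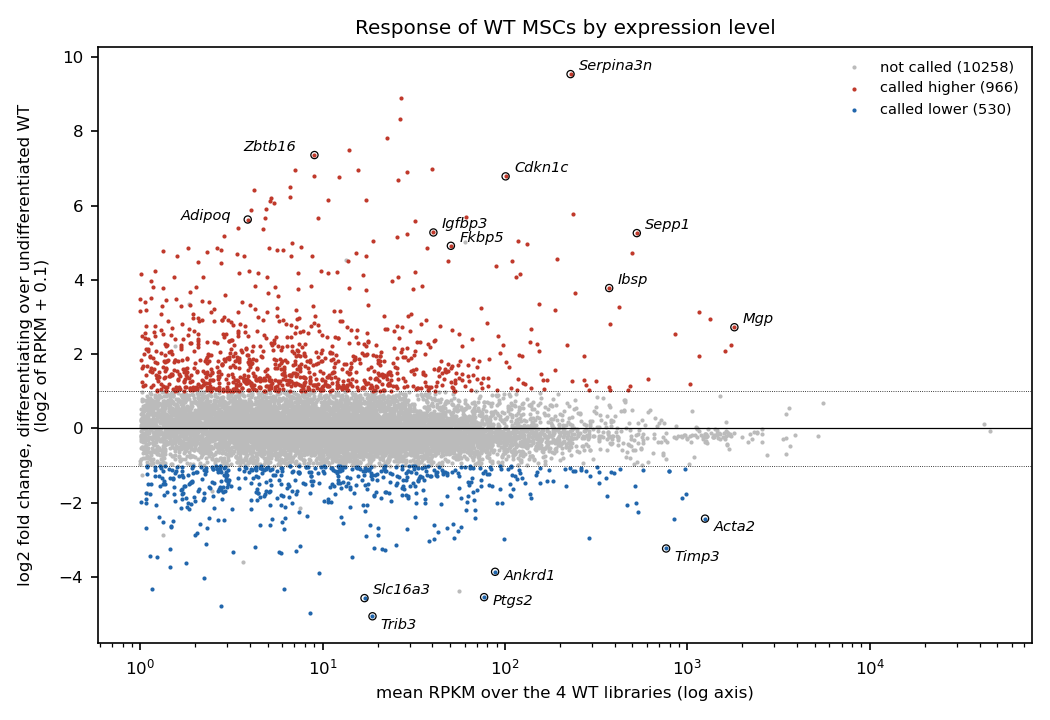
Each point is 1 of the 11754 genes, with the mean RPKM over the 4 WT libraries on a log axis against the log2 fold change of differentiating over undifferentiated WT MSCs, and dotted lines at a 2-fold change. The 966 genes called higher (red) reach a log2 change of 9.54 at Serpina3n, whereas the 530 called lower (blue) reach -5.06 at Trib3.

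The largest rises were of genes that were almost silent before induction. Changes are given below as the log2 fold change ± standard error from limma, on log2(RPKM + 0.1), a scale that understates the change of such low genes. Serpina3n, a secreted serine protease inhibitor of the acute phase, had 0.476 and 0.549 RPKM before and 491 and 423 RPKM after induction (9.54 ± 0.12, adjusted p = 2.96e-07). Its neighbours Serpina3m (0.0279 and 0 RPKM before and 57.5 and 50.5 RPKM after, 8.90 ± 0.14) and Serpina3c (0.0821 and 0.118 and then 47.8 and 42.5 RPKM, 7.82 ± 0.15) rose with it. All 3 lie on chromosome 12 (GRCm38 coordinates, Serpina3n at chr12:104406729-104414329 and Serpina3c at chr12:104146382-104153870). They are close paralogs, so reads may have been divided between them uncertainly. Another cluster, of flavin-containing monooxygenases that oxidise drugs and other foreign compounds, sits on chromosome 1: Fmo2 had 0.11 and 0.0311 RPKM before and 56.3 and 50.1 RPKM after induction (8.32 ± 0.21) and Fmo1 changed by 6.96 ± 0.15. Sult1a1, a sulfotransferase that conjugates phenols, rose from 0.418 and 0.351 to 61 and 54.2 RPKM (6.90 ± 0.09).

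Other genes among the 15 largest rises encode a transcription factor, a cell cycle inhibitor, enzymes and membrane proteins. Zbtb16, the zinc finger repressor PLZF and a known glucocorticoid target, had 0.0166 and 0.00397 RPKM before and 18.6 and 17.5 RPKM after induction (7.36 ± 0.11, adjusted p = 4.26e-07). Cdkn1c, the cyclin-dependent kinase inhibitor p57, had 1.63 and 1.79 RPKM before and 195 and 205 RPKM after induction (6.79 ± 0.07, adjusted p = 1.57e-07) and was the most abundant of the 15 after Serpina3n. Ace, the angiotensin-converting enzyme, went from 0.0541 and 0.0532 to 30.5 and 25 RPKM (7.49 ± 0.15). Ramp2, a partner of the adrenomedullin receptor, went from 0.487 and 0.554 to 82.6 and 74.9 RPKM (6.99 ± 0.11), and Adm, which encodes adrenomedullin, rose from 58.3 and 59.5 to 247 and 249.5 RPKM (2.07 ± 0.04). Further rises of the 15 were Galnt15 (6.96 ± 0.12), Ppl (6.76 ± 0.08), Scara5 (6.70 ± 0.16) and Slc10a6 (6.51 ± 0.15). In each of the 15, both differentiating libraries were above both undifferentiated ones.

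**Figure D2:**
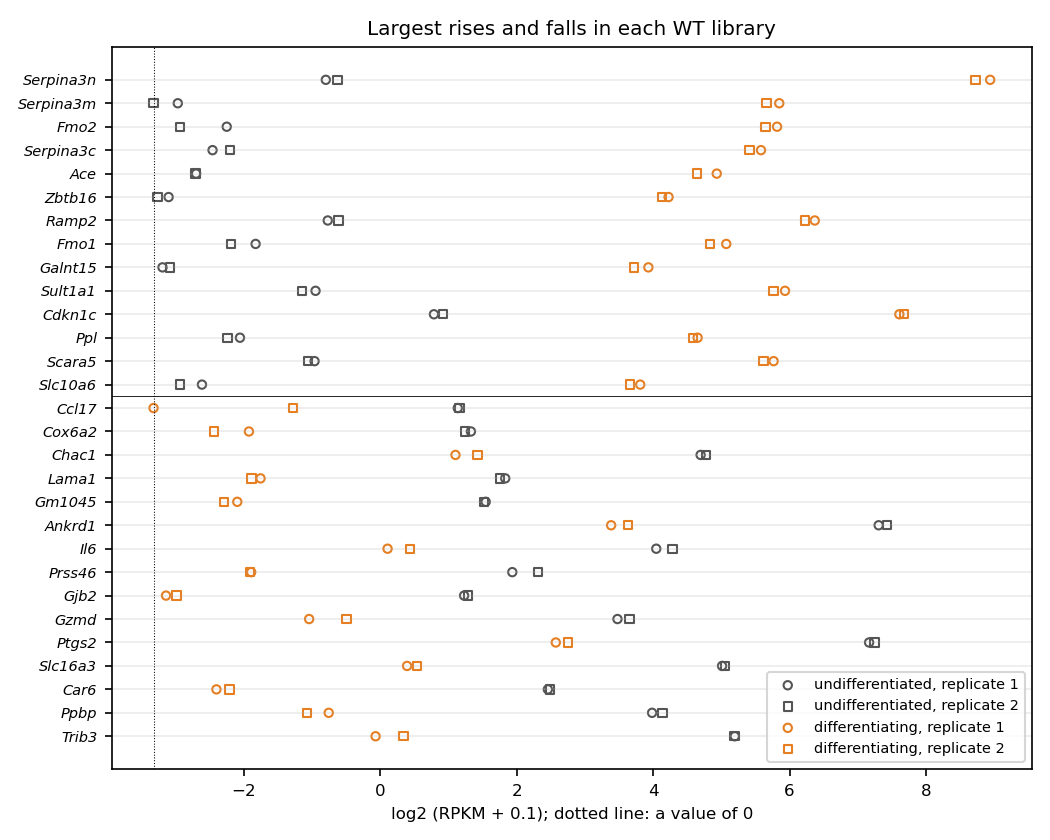
Log2(RPKM + 0.1) of 14 of the 15 genes with the largest rise (top) and the 15 with the largest fall (bottom) in each WT library, with undifferentiated libraries in grey and differentiating libraries in orange, and replicates 1 and 2 as circles and squares. The 2 libraries of a state sit close together next to the gap between states, except at Ccl17, which is at 0 and 0.313 RPKM in the differentiating libraries.

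The 10 called genes with the largest gain in RPKM are described next; uncalled genes that were already abundant, such as Rpph1 and S100a4, differed by as much or more in RPKM. Mgp, matrix Gla protein, which inhibits mineralization of soft tissue, rose from 470.0 and 481 to 3202 and 3090.3 RPKM (2.73 ± 0.05, adjusted p = 6.4e-07). Postn, periostin of the bone surface, rose from 299 and 315 to 2440.1 and 2264 RPKM (2.94 ± 0.05), and Gas6, a ligand of Axl-family receptors, from 228 and 242 to 2096 and 2069 RPKM (3.15 ± 0.06). Gsn, the actin-severing protein gelsolin, rose from 588 and 618 to 2984 and 2729 RPKM (2.24 ± 0.05). The ferritin heavy chain Fth1 went from 604 and 618 to 2742 and 2481 RPKM (2.09 ± 0.09), whereas the light chain Ftl1 stood at 4149 and 4383 RPKM before and 3058 and 3060.3 RPKM after (-0.48 ± 0.08). Sepp1, the selenium carrier of plasma, rose from 26.6 and 26.9 to 1083 and 977 RPKM (5.26 ± 0.08). The metallothionein Mt2 rose from 36.8 and 35.8 to 1033 and 885 RPKM (4.72 ± 0.08), Cst3 by 2.54, Ly6a, which encodes Sca-1, by 1.96 and S100a10 by 1.19 log2 units.

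Genes known to respond to glucocorticoids were higher as a group. Of the 25 genes of this list in the rule, 18 were called higher and 0 lower, and the median log2 fold change was 1.73, against -0.04 over the 11754 genes. Fkbp5, a chaperone that damps receptor signalling, had 3.2 and 3.08 RPKM before and 98.2 and 97.5 RPKM after induction (4.92 ± 0.05, adjusted p = 2.66e-07). Tsc22d3, which encodes the anti-inflammatory protein GILZ, had 34.5 and 36.4 RPKM before and 456 and 436 RPKM after induction (3.65 ± 0.05), and Klf15, a zinc finger factor, had 1.03 and 1.02 RPKM before and 20.5 and 20.0 RPKM after induction (4.17 ± 0.05). Glul, glutamine synthetase, rose from 15.6 and 15.3 to 387 and 354 RPKM (4.57 ± 0.06) and Fam107a from 0.0692 and 0.053 to 5.97 and 5.44 RPKM (5.17 ± 0.10). Per1, a clock repressor, rose by 1.73 and Errfi1, an inhibitor of EGF receptors, by 1.46 log2 units. Lcn2, a siderophore-binding lipocalin, was listed at 0 in both undifferentiated libraries and at 9.17 and 7.69 RPKM after induction, so no size of change is given for it, although it counts among the calls. Members that did not pass the fold limit were the kinase gene Sgk1 (225 and 236 and then 414 and 411 RPKM, 0.84 ± 0.04), Dusp1 (0.31 ± 0.03), Pdk4 (0.51 ± 0.08), Angptl4, Cebpb, Ddit4 and Nr3c1, the receptor itself, at 19.5 and 19.6 RPKM before and 24.2 and 22.6 RPKM after.

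The full binding element of the glucocorticoid receptor, searched as GNACANNNTGTNC on both strands, is rare within promoters. Promoter windows came from RefSeq (GRCm38.p6) and ran from 250 bases before to 50 bases after the transcription start; 9402 of the 11754 genes matched an entry. The element stood in 0.537% of all 27025 promoter entries, in 0.415% of those of the 11754 genes, in 1.68% (12 of 714) of those called higher and in 0.251% (1 of 398) of those called lower. Of the called genes of the glucocorticoid list, 2 of 15 with an entry held it. The shorter receptor motif TGTTCT was in 20.0% of the genes called higher, 16.1% of those called lower, 14.5% of the 11754 genes' entries and 21.3% of all promoters. The 3 stretches below are shown because they belong to the called genes with the largest rise that hold the element, which is in capitals. The Serpina3n and Serpina3c stretches differ at 4 of their 100 bases, and the element begins 78 and 75 bases before the start in them and 163 bases before it in Slc10a6.
Serpina3n, chr12:104406586-104406685, plus strand: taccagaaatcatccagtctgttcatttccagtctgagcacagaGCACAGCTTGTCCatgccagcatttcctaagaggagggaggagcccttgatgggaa
Serpina3c, chr12:104153892-104153991, minus strand: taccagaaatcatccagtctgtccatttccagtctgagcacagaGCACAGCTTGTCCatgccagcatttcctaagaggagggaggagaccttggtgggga
Slc10a6, chr5:103629511-103629610, minus strand: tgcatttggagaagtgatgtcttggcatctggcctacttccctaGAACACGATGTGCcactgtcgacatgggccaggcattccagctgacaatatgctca

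Osteoblast regulators did not move as a group on day 3. Of 12 osteoblast transcription factors in the rule, 1 was called higher and 3 lower, with a median log2 fold change of -0.04. Runx2, the master regulator of bone formation, was at 5.07 and 4.5 RPKM in the undifferentiated and 5.57 and 4.95 RPKM in the differentiating libraries (0.13 ± 0.09, adjusted p = 0.258), and the states overlapped. Sp7, which encodes osterix and acts downstream of Runx2, fell from 7.28 and 7.84 to 3.12 and 3.11 RPKM (-1.25 ± 0.11, adjusted p = 0.000137). Msx2, a homeobox factor, fell from 2.79 and 2.89 to 1.19 and 1.23 RPKM (-1.17 ± 0.09) and Atf4 from 263 and 269 to 95.9 and 103 RPKM (-1.42 ± 0.07). Zfp521, a zinc finger antagonist of Runx2, rose from 5.89 and 5.83 to 17.5 and 15.8 RPKM (1.49 ± 0.07). The values of Dlx5 (-0.26 ± 0.13) and Twist1 (-0.07 ± 0.06) did not pass either limit.

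Matrix genes of bone were divided. Of 15 bone matrix and mineralization genes, 4 were called higher and 2 lower, with a median of 0.04. Besides Mgp and Postn, Ibsp, bone sialoprotein, which nucleates mineral, had 49.5 and 51.3 RPKM before and 729 and 661 RPKM after induction (3.78 ± 0.10, adjusted p = 2.01e-06), and Smpd3, a sphingomyelinase needed for bone mineralization, had 2.98 and 2.67 RPKM before and 44.5 and 46.5 RPKM after induction (3.96 ± 0.06, adjusted p = 4.53e-07). The phosphate transporter gene Slc20a1 fell from 95.9 and 97.7 to 14.1 and 14.4 RPKM (-2.75 ± 0.09) and Enpp1, which makes the mineralization inhibitor pyrophosphate, from 3.94 and 3.59 to 1.88 and 1.49 RPKM (-1.12 ± 0.11). The Enpp1 call was lost without the differentiating replicate 2 library. The main matrix genes were already high and stayed under the fold limit: Sparc was at 2578 and 2585 RPKM before and 2516 and 2591 RPKM after (-0.02 ± 0.09), Col1a1 at 735 and 597 and then 829.8 and 712 RPKM (0.21 ± 0.13, adjusted p = 0.185), Spp1, osteopontin, at 516 and 519 and then 715 and 680.1 RPKM (0.43 ± 0.06), and Alpl, alkaline phosphatase, at 44.6 and 44.2 and then 36.9 and 35.2 RPKM (-0.30 ± 0.05). Late markers were outside the rule: osteocalcin genes Bglap, Bglap2 and Bglap3 were each at 0 to 1.16 RPKM in every library, and Dmp1 was at 1.13 RPKM in the differentiating replicate 1 library and at 0.0836 RPKM or less in the other 3.

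Genes of fat cells rose within the same cultures. Of 14 adipogenic regulators and fat storage genes, 9 were called higher and 0 lower, with a median of 1.83. The regulators Cebpa and Pparg rose from 9.73 and 11 to 43.6 and 43 RPKM (2.05 ± 0.06) and from 9.93 and 11.1 to 22.9 and 22.5 RPKM (1.11 ± 0.05). Fabp4, the fatty acid carrier of fat cells, had 36.5 and 37.4 RPKM before and 335 and 339.5 RPKM after induction (3.19 ± 0.05, adjusted p = 5.35e-07), and Lpl, lipoprotein lipase, had 0.777 and 0.805 RPKM before and 10.8 and 10.3 RPKM after induction (3.58 ± 0.11). Adipoq, which encodes the hormone adiponectin, went from 0.0593 and 0.0568 to 7.65 and 7.78 RPKM (5.63 ± 0.21), and Plin4, a lipid droplet coat protein, from 6.39 and 6.23 to 54.8 and 49.5 RPKM (3.03 ± 0.05). Other genes of mature fat cells stayed low: Plin1, Cidec, Lep, Retn and Cfd were all under 1 RPKM in every library. For each of these named genes, both differentiating libraries were above both undifferentiated ones. Cidec was at 0 and 0.0130 and then 0.616 and 0.233 RPKM, while Lep was at most 0.0536 RPKM, under the pseudocount of 0.1 RPKM. Such separation is common, since the states did not overlap in 88.7% of the 11754 genes. Gpd1, also under 1 RPKM, was at 0.244 and 0.294 and then 0.577 and 0.308 RPKM. In Cd36 the states overlapped, at 0.146 and 0.195 RPKM before and 0.321 and 0.176 RPKM after. The droplet protein Plin2 did not rise, at 92.8 and 97.8 RPKM before and 60.6 and 62.6 RPKM after (-0.63 ± 0.04). These are bulk samples, in which more cells of a type and more RNA per cell cannot be told apart.

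The cartilage and tendon list also moved in both directions, with 6 of 11 genes called higher and 3 lower. Comp, a cartilage and tendon matrix protein, rose from 27.2 and 28.1 to 292 and 271 RPKM (3.34 ± 0.08), Cilp from 0.18 and 0.197 to 8.0 and 6.43 RPKM (4.65 ± 0.16) and Sox9, the chondrocyte regulator, from 1.63 and 1.39 to 6.53 and 5.96 RPKM (1.98 ± 0.12). Scx, the tendon regulator scleraxis, fell from 37.5 and 42.2 to 4.04 and 4.04 RPKM (-3.27 ± 0.10), and its target Tnmd had 3.82 and 3.49 RPKM before and 8.64 and 8.15 RPKM after induction (1.18 ± 0.13). The cartilage collagens Col2a1 (123 and 119 and then 39.1 and 45.1 RPKM, -1.53 ± 0.13) and Col10a1 (-1.85 ± 0.09) fell.

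Among collagens, 6 of 24 genes were called higher and 3 lower. Those that rose were Col14a1 (0.918 and 1.06 and then 10.5 and 9.85 RPKM, 3.24 ± 0.12), Col28a1, Col18a1, Col24a1, Col6a1 and Col6a2, while Col5a2 fell (1084 and 1113 and then 496 and 497 RPKM, -1.14 ± 0.09) with Col2a1 and Col10a1. Small leucine-rich proteoglycans, which bind collagen fibrils, gave 5 higher and 1 lower of 13. Dcn, decorin, had 3.2 and 3.14 RPKM before and 68.6 and 53 RPKM after induction (4.21 ± 0.16, adjusted p = 6.25e-06) and Lum, lumican, 1.03 and 0.833 RPKM before and 10.4 and 7.62 RPKM after induction (3.13 ± 0.17), and Aspn and Prelp rose by 1.66 and 1.86 log2 units. Enzymes that process or cross-link collagen gave 2 higher and 3 lower of 25, the falls being Loxl2 (218 and 217 and then 58.2 and 61.1 RPKM, -1.87 ± 0.03), P4ha1 and Plod2. Of matrix metalloproteinases and their inhibitors, Mmp13, the collagenase of cartilage and bone, rose from 44.7 and 46.5 to 242 and 218 RPKM (2.33 ± 0.10). The inhibitor genes parted: Timp3 fell from 1376 and 1389 to 150.3 and 144 RPKM (-3.23 ± 0.04, adjusted p = 2.96e-07) and Timp4 rose from 0.0336 and 0.0964 to 11 and 10.5 RPKM (6.06 ± 0.18).

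**Figure D3:**
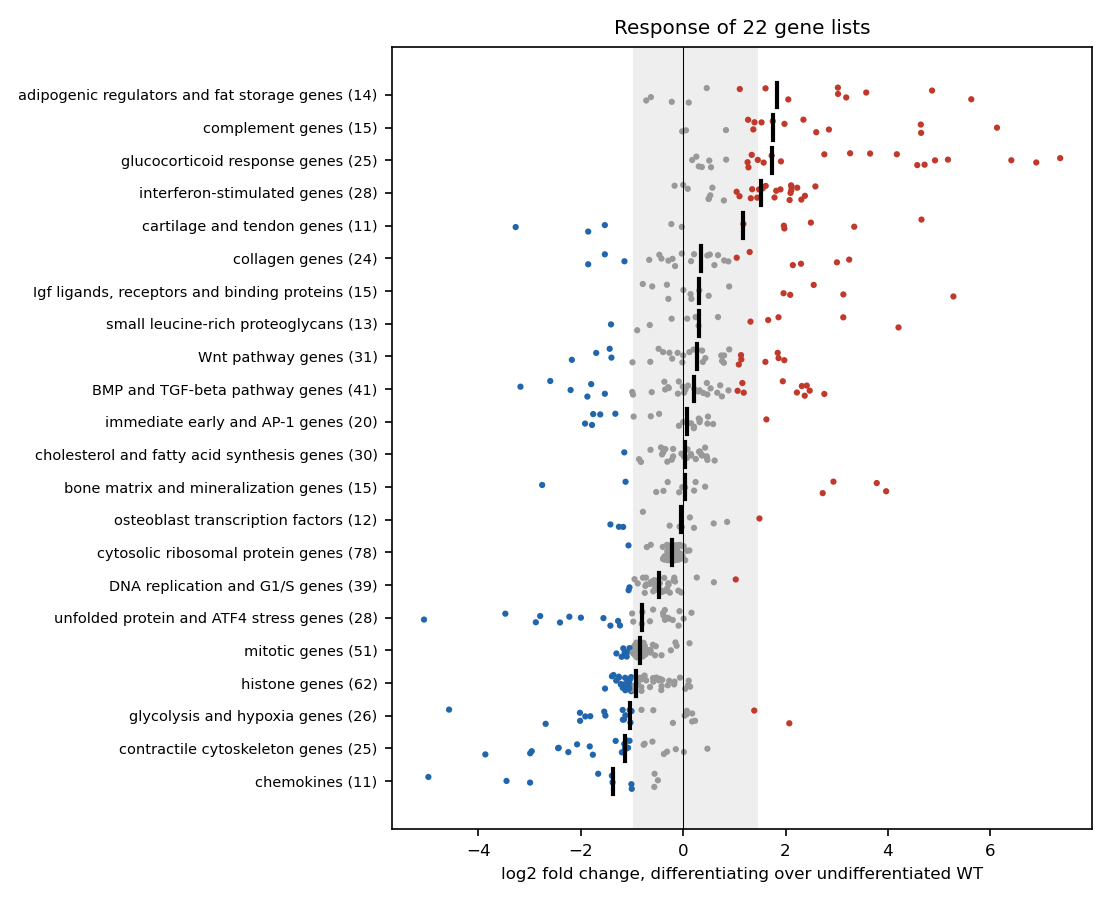
Each point is the WT log2 fold change of 1 gene in 1 of 22 gene lists, red if called higher, blue if called lower and grey if not called, with the list's median as a black bar, the number of genes in brackets and the middle 90% of all 11754 genes shaded (-0.97 to 1.45). The adipogenic list has the highest median (1.83) and the chemokine list, which leaves out Cxcl12, the lowest (-1.38), whereas the osteoblast transcription factors centre near 0.

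Most complement genes rose. Of 15 complement genes, 12 were called higher and 0 lower, with a median of 1.75. C3, the central component, went from 0.0206 and 0.0789 to 11.3 and 9.21 RPKM (6.13 ± 0.24), the alternative pathway factor Cfb from 1.21 and 1.26 to 32 and 34.5 RPKM (4.64 ± 0.07), C4b from 0.572 and 0.582 to 17.7 and 16.1 RPKM (4.65 ± 0.09) and the inhibitor Serping1 from 18.8 and 19.7 to 148 and 131 RPKM (2.85 ± 0.12). C1qa, C1qb and C1qc, which macrophages make, were at most 2.86 RPKM in any library. The 24 macrophage and leukocyte markers of the table summed to 30.6 and 32.1 RPKM before and 51.4 and 58.2 RPKM after induction. Of these, 11 were in the rule, with 5 called higher (C1qa, C1qb, C1qc, Cd14 and Mrc1) and 0 lower. Csf1r, the macrophage growth factor receptor, was at 1.53 and 1.43 RPKM before and 0.71 and 0.698 RPKM after (-0.97 ± 0.09). The part of such cells in the complement values was not tested. Without the undifferentiated replicate 1 library, 3 of these markers were called higher, and without the undifferentiated replicate 2 library, 1 was called lower.

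Of 28 interferon-stimulated genes, which act against viruses, 20 were called higher and 0 lower, with a median of 1.52. Isg15, a ubiquitin-like modifier, had 8.8 and 9.56 RPKM before and 18.7 and 39.4 RPKM after induction (1.56 ± 0.53, adjusted p = 0.0426), Ifit1, which binds foreign RNA caps, had 4.83 and 4.74 and then 21.8 and 39.1 RPKM (2.58 ± 0.49, adjusted p = 0.00438), and Irf7, a regulator of interferon genes, had 4.27 and 4.12 and then 12.2 and 20.8 RPKM (1.90 ± 0.40, adjusted p = 0.00678). In each of these, both differentiating libraries were above both undifferentiated ones, and replicate 2 was well above replicate 1. The Isg15 call was lost without any 1 of 5 libraries, among them either undifferentiated WT library and the differentiating replicate 2 library. Replicate 2 was the higher of the differentiating libraries in 26 of the 28 genes, and the list's median over the undifferentiated mean was 1.41 in replicate 1 and 1.83 in replicate 2. Over all 11754 genes, replicate 2 was the higher in 5948. Several lists leaned one way between these libraries: replicate 2 was the higher in 70 of 78 ribosomal protein, 44 of 51 mitotic and 22 of 25 contractile genes, and in 3 of 25 glucocorticoid response genes. For the glucocorticoid list the medians were 1.79 in replicate 1 and 1.67 in replicate 2, and for the contractile list they were -1.17 and -1.11.

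**Figure D4:**
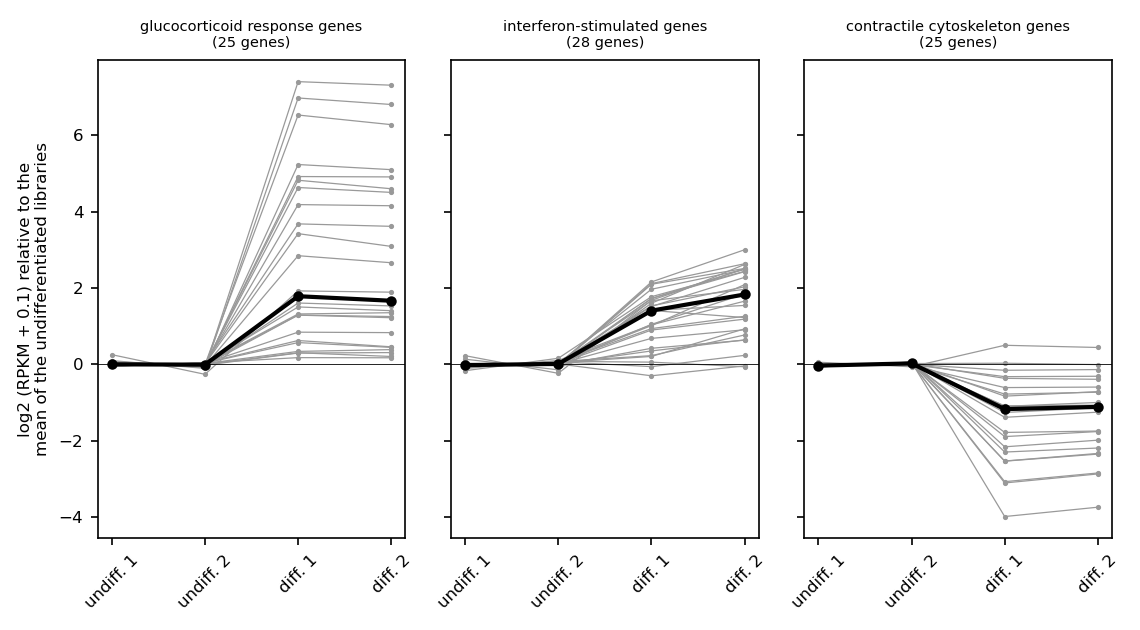
Log2(RPKM + 0.1) of each gene (grey lines) and the list's median (black) in the 4 WT libraries, relative to the mean of the undifferentiated libraries, for 25 glucocorticoid response, 28 interferon-stimulated and 25 contractile genes. The medians of differentiating replicates 1 and 2 are 1.79 and 1.67 for the glucocorticoid and -1.17 and -1.11 for the contractile list, and the interferon-stimulated genes stand higher in differentiating replicate 2 (median 1.83) than in replicate 1 (median 1.41).

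Promoters of the interferon-stimulated genes often held the interferon-stimulated response element, searched on both strands as GAAANNGAAA, a motif chosen after the responses were seen. It stood in 64.3% of the 14 called genes of the list with a promoter entry, in 7.42% of all genes called higher, in 3.02% of those called lower, in 3.56% of the 11754 genes' entries and in 3.99% of all promoters. The called members of the list with the largest rise that hold it are shown, with the element in capitals; Ifit1 has it at 2 places, starting 104 and 85 bases before the start, and Oas3 (0.324 and 0.306 and then 1.68 and 2.28 RPKM) has it 75 bases before.
Ifit1, chr19:34640749-34640848, plus strand: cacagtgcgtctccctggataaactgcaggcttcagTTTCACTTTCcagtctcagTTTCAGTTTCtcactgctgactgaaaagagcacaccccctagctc
Oas3, chr5:120777680-120777779, minus strand: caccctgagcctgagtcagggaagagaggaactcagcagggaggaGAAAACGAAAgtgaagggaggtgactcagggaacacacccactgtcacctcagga

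Secreted signals and their inhibitors changed in opposing directions within pathways. In the BMP and TGF-beta list, 10 of 41 genes were called higher and 6 lower. The ligand genes Bmp6 and Gdf6 rose (2.42 ± 0.17 and 2.38 ± 0.11), and Inhba (101 and 100.1 and then 20.8 and 22.9 RPKM), Tgfb3 and Gdf15 fell. The extracellular antagonists did not move as 1: chordin, Chrd, rose from 1.94 and 1.79 to 10.8 and 10.8 RPKM (2.47 ± 0.06), follistatin, Fst, from 50.3 and 51.1 to 195 and 197 RPKM (1.95 ± 0.03) and noggin, Nog, from 0.746 and 1.16 to 2.01 and 2.1 RPKM, while gremlin, Grem1, fell (-1.53 ± 0.05). The co-receptor Tgfbr3, the receptor Acvrl1 and the target genes Id2 and Id4 rose (2.76, 2.22, 1.16 and 2.32), and the TGF-beta-induced matrix protein Tgfbi fell from 14.1 and 13.1 to 1.59 and 1.26 RPKM (-3.18 ± 0.10).

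In the Wnt list, 7 of 31 genes were called higher and 4 lower. The inhibitors Dkk2 (6.39 and 6.52 and then 23.4 and 24.1 RPKM, 1.86 ± 0.04), Sfrp1, Sfrp2 and Nkd1 rose, as did the ligand Wnt2 and the receptors Fzd1 and Fzd4. Wnt10b, a ligand that favours bone over fat, fell from 3.28 and 2.9 to 0.53 and 0.691 RPKM (-2.17 ± 0.12), and Wnt9a, Wnt11 and Fzd6 fell, with log2 fold changes of -1.70, -1.43 and -1.40. Insulin-like growth factor genes gave 5 higher and 0 lower of 15: the ligands Igf1 (1.77 and 1.7 and then 7.92 and 7.5 RPKM, 2.09 ± 0.08) and Igf2 (3.13 ± 0.18), the binding proteins Igfbp3 (1.93 and 1.94 and then 85.9 and 72.3 RPKM, 5.28 ± 0.15) and Igfbp6 (1.96 ± 0.03), and the protease Pappa2 (2.55 ± 0.09).

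Factors by which marrow stroma supports blood cells and osteoclasts gave 4 higher and 6 lower of 18. Cxcl12, which retains stem cells in marrow, rose from 75.6 and 78.3 to 377 and 349.8 RPKM (2.24 ± 0.07), and Kitl, stem cell factor, from 4.4 and 3.95 to 26.8 and 26.4 RPKM (2.65 ± 0.06). Angpt1 and Il34 rose by 1.81 and 2.27 log2 units. Tnfrsf11b, osteoprotegerin, the decoy receptor that restrains osteoclasts, fell from 97.6 and 100.3 to 15.1 and 16.1 RPKM (-2.66 ± 0.09), while its ligand gene Tnfsf11, RANKL, was at 6.78 and 7.26 RPKM before and 5.56 and 5.54 RPKM after (-0.33 ± 0.06). The cytokine genes Il6 (16.4 and 19.4 and then 0.978 and 1.25 RPKM, -3.89 ± 0.26), Lif (-2.61 ± 0.11) and Il11 (-2.46 ± 0.13) fell.

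The 15 largest falls held genes of varied kinds. Ptgs2, cyclooxygenase-2, the inducible enzyme of prostaglandin synthesis, had 144 and 151 RPKM before and 5.85 and 6.62 RPKM after induction (-4.54 ± 0.17, adjusted p = 5.87e-06). All 11 genes of the chemokine list in the rule had negative fold changes and 8 were called lower. This list leaves out the chemokine gene Cxcl12, which rose and is given above with the marrow factors. Ppbp, a platelet-type chemokine, fell from 15.7 and 17.5 to 0.493 and 0.377 RPKM (-4.97 ± 0.12), Cxcl14 from 70.1 and 75 to 9.05 and 9.06 RPKM (-2.99 ± 0.07), the monocyte attractant Ccl2 from 52.2 and 55.6 to 15 and 19.4 RPKM (-1.66 ± 0.17) and the neutrophil attractant Cxcl1 from 16.5 and 18.7 to 6.41 and 6.91 RPKM (-1.39 ± 0.08). Other large falls were those of the laminin gene Lama1 (-3.61 ± 0.10), the gap junction gene Gjb2 (-4.32 ± 0.16), the carbonic anhydrase Car6 (-4.77 ± 0.12), the granzyme Gzmd (-4.33 ± 0.25), the protease gene Prss46 (-4.02 ± 0.14), Gm1045 (-3.72 ± 0.21) and Cox6a2 (-3.46 ± 0.28).

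Of the called genes, the 10 with the largest fall in RPKM included Acta2, Tagln, Tpm1, Myl9 and Tpm4. Of 25 genes of the contractile cytoskeleton, 17 were called lower and 0 higher, with a median of -1.14. The 26 listed genes summed to 11930.0 and 12500.0 RPKM before and 3860.0 and 4097 RPKM after. Acta2, smooth muscle actin, fell from 2052 and 2165 to 365 and 419 RPKM (-2.43 ± 0.18, adjusted p = 8.9e-05), Tagln from 1369.9 and 1473 to 245 and 279 RPKM (-2.44 ± 0.17) and the calponin gene Cnn1 from 170.1 and 179 to 20.2 and 23.8 RPKM (-2.99 ± 0.16). Tropomyosin Tpm1 (-1.76 ± 0.06), myosin light chain Myl9 (-2.24 ± 0.15), Tpm4 (-1.15 ± 0.12) and the growth factor Ctgf (-2.07 ± 0.17) were also among the falls. Ankrd1, a mechanically responsive repeat protein, had the largest fall of the list (158 and 172 and then 10.3 and 12.3 RPKM, -3.86 ± 0.17). Srf, the transcription factor that drives such genes, fell from 17.1 and 17.8 to 8.09 and 8.69 RPKM (-1.05 ± 0.07). Actg1, a cytoplasmic actin, fell from 1289 and 1333 to 616 and 625 RPKM (-1.08 ± 0.08). The small RNA gene Rnu73b was also among these 10 called genes, at 1214 and 479 RPKM before and 262 and 136 RPKM after, with replicates that stood far apart.

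The binding site of Srf, the CArG box, searched on both strands after the responses were seen, was in 28.6% (4 of 14) of the called contractile genes with a promoter entry, in 6.03% of all genes called lower, in 1.96% of those called higher, in 1.61% of the 11754 genes' entries and in 1.81% of all promoters. The members with the largest fall that hold it are Myl9 and Cnn2 (541 and 564 and then 231 and 252 RPKM), with the box in capitals 161 and 56 bases before the start.
Myl9, chr2:156775258-156775357, plus strand: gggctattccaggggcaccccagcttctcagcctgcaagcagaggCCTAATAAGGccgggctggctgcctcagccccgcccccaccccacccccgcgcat
Cnn2, chr10:79988499-79988598, plus strand: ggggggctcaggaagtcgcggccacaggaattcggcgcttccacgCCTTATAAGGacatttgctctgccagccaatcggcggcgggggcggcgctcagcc

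Genes of the integrated stress response, which Atf4 drives when amino acids are short or proteins misfold, fell. Of 28 unfolded protein and ATF4 stress genes, 11 were called lower and 0 higher, with a median of -0.80. Trib3, a pseudokinase that is a late target of this response, had 36.6 and 36.5 RPKM before and 0.854 and 1.17 RPKM after induction (-5.06 ± 0.12, adjusted p = 1.46e-06), the largest log2 fall among the 530 genes. Chac1, which degrades glutathione, had 25.8 and 27.3 RPKM before and 2.05 and 2.59 RPKM after induction (-3.47 ± 0.12) and Ddit3, which encodes CHOP, had 114 and 118 RPKM before and 20.2 and 23.6 RPKM after induction (-2.40 ± 0.09). Amino acid supply genes fell with them: asparagine synthetase Asns (152 and 155 and then 37 and 39.9 RPKM, -2.0 ± 0.05), the serine pathway enzyme Psat1 (-1.23 ± 0.12), the mitochondrial folate enzyme Mthfd2 (-2.79 ± 0.14) and the transporters Slc7a11 (-2.88 ± 0.07) and Slc7a5 (-2.22 ± 0.09). The endoplasmic reticulum chaperone genes of the list stayed within the fold limit: Hspa5 was at 736 and 760.4 RPKM before and 370.3 and 392.2 RPKM after (-0.97 ± 0.10), and Dnajc3 (-0.09 ± 0.04) and Sdf2l1 (0.01 ± 0.11) were near 0.

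The ATF4 site, searched as TGATGNAA on both strands and also chosen after the responses were seen, was in 50.0% (5 of 10) of the called stress genes with a promoter entry. It was in 6.03% of all genes called lower, in 2.80% of those called higher, in 2.71% of the 11754 genes' entries and in 4.51% of all promoters. The 2 called members with the largest fall that hold it are shown, with the site in capitals, 14 bases after the start in Trib3 and 193 bases before it in Chac1.
Trib3, chr2:152344011-152344110, minus strand: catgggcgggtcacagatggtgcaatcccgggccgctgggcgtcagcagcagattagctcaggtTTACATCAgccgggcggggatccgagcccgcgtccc
Chac1, chr2:119351003-119351102, plus strand: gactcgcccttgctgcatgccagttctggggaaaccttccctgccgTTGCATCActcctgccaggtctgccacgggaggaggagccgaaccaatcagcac

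Sugar metabolism genes fell at step after step of glycolysis. Of 26 glycolysis and hypoxia genes, 15 were called lower and 2 higher, with a median of -1.03. The lactate exporter Slc16a3 had 32.1 and 33.2 RPKM before and 1.21 and 1.35 RPKM after induction (-4.57 ± 0.11, adjusted p = 1.27e-06), the glucose transporter Slc2a1 went from 30.9 and 29.1 to 8.44 and 8.49 RPKM (-1.81 ± 0.05) and lactate dehydrogenase Ldha from 749.9 and 783 to 249.6 and 278 RPKM (-1.54 ± 0.09). Between these steps, Hk2, Pfkl, Aldoa, Tpi1, Gapdh, Pgk1, Pgam1 and Eno1 fell, with log2 fold changes of -1.52, -2.01, -1.13, -1.15, -1.18, -1.18, -1.03 and -1.04 in the order of the pathway. Vegfa, the vascular growth factor, fell from 83.2 and 84.2 to 12.9 and 13 RPKM (-2.68 ± 0.05). The members called higher were Adm, named above, and Ndrg1 (1.39 ± 0.11), a gene that also responds to other stresses. Of the 26 genes, 8 had a positive fold change.

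Antioxidant genes moved in both directions. Of 28 glutathione and antioxidant genes, 7 were called higher and 5 lower. Those that rose included glutathione transferases and peroxidases: Mgst1 (34.7 and 35.7 and then 135 and 123 RPKM, 1.87 ± 0.06), Gstt1 (1.85 ± 0.10), Gstm1 (1.43 ± 0.11), Gpx3 (1.20 ± 0.10) and Prdx6 (1.57 ± 0.06). Those that fell were Nqo1 (108 and 116 and then 24.2 and 24.5 RPKM, -2.19 ± 0.06), Txnrd1 (-1.70 ± 0.04), Srxn1 (-1.30 ± 0.06), Hmox1 (-1.18 ± 0.04) and Gclm (-1.14 ± 0.07). The subunits of the glutathione-making ligase parted, with Gclc rising (23.2 and 24.3 and then 63.2 and 63.4 RPKM, 1.41 ± 0.06) and Gclm falling (23 and 22.8 and then 11 and 9.6 RPKM).

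Cell cycle genes were lower nearly throughout, most of them by less than 2-fold. Of 51 mitotic genes, 48 passed the adjusted p, 50 had a negative fold change, and 7 were called lower, with a median of -0.84. These calls sat at the fold limit: 19 were lower after quantile normalization and 13 without the differentiating replicate 2 library. Top2a, the topoisomerase of dividing cells, had 40.5 and 40.6 RPKM before and 17.6 and 19.1 RPKM after induction (-1.14 ± 0.13, adjusted p = 0.000539), the checkpoint kinase gene Bub1 6.4 and 6.32 RPKM before and 2.24 and 2.84 RPKM after induction (-1.30 ± 0.16) and the spindle kinase gene Aurka 15.9 and 17.5 RPKM before and 6.51 and 7.98 RPKM after induction (-1.20 ± 0.24). The histone list was taken by gene name, and besides genes transcribed as DNA is copied it holds variant genes. It gave 25 lower and 0 higher of 62, with a median of -0.93. Histone copies are near identical, so reads may have been divided between them uncertainly, and the number lower was 15 without the undifferentiated replicate 2 library and 13 without the differentiating replicate 1 library. The DNA replication list had a smaller median, -0.47, with 2 of 39 called lower, Mcm10 (-1.06 ± 0.25) and Uhrf1 (-1.05 ± 0.24), and neither fall was called without the undifferentiated replicate 2 library or without the differentiating replicate 1 library. Rrm2, a subunit of ribonucleotide reductase, went the other way, from 58 and 61.2 to 118 and 125 RPKM (1.03 ± 0.09); this call was lost without the undifferentiated replicate 1 library and without the differentiating replicate 2 library.

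Inhibitors of the cell cycle other than Cdkn1c stayed within 2-fold. Cdkn1a, p21, was at 79.8 and 79.3 RPKM before and 84.5 and 88.6 RPKM after (0.12 ± 0.03), Cdkn1b, p27, at 19.2 and 19.5 and then 22 and 20.6 RPKM (0.13 ± 0.06) and Cdkn2a at 169.9 and 181 and then 241 and 250.1 RPKM (0.48 ± 0.05). The list of CDK inhibitors, D cyclins and p53 targets gave 3 higher and 1 lower of 24. The p53-induced genes Sesn1 and Trp53inp1 rose, with log2 fold changes of 2.33 and 1.16, and Gadd45a fell, with -2.37.

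The cell cycle genes homology region, TTTGAA, through which mitotic genes are held off in resting cells, was in 76.7% of the 43 mitotic genes with a promoter entry and in 83.3% (5 of 6) of those called lower. It was in 18.3% of all genes called lower, in 15% of those called higher, in 14.2% of the 11754 genes' entries and in 20.2% of all promoters. It is shown in capitals for the called mitotic genes with the largest fall that hold it, beginning 32 bases after the start in Aurka and 29 bases after it in Ndc80 (9.89 and 10.6 and then 4.5 and 4.48 RPKM), a kinetochore protein gene.
Aurka, chr2:172370521-172370620, minus strand: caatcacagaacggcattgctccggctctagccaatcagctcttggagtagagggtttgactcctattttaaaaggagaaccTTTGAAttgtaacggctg
Ndc80, chr17:71526808-71526907, minus strand: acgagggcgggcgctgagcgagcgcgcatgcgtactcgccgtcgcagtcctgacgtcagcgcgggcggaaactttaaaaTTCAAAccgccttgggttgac

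A CCAAT box was in 39.8% of the genes called higher and 50.8% of those called lower, and in 91.7% of the 24 called histone genes with an entry, against 43.4% of the 11754 genes' entries. The shares in genes called higher and lower were 14.0% and 15.1% for the TATA box (TATAAA), against 8.74% of the 11754 genes' entries, 11.5% and 11.3% for the AP-1 site (TGANTCA), against 6.23%, and 10.1% and 8.29% for the E-box (CACGTG), against 12%. For the metal response element (TGCACNC or TGCGCNC), the shares were 35.4% and 41.0%, against 40.9%. For the antioxidant response element (TGACNNNGC), they were 15.8% and 17.1%, against 17.1%. The antioxidant element was in 3 of 4 antioxidant genes called lower that had an entry. Motif matches describe the letters of these windows and overlaps between motifs were not removed.

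The lipid synthesis, ribosomal and respiratory chain lists changed little, while immediate early genes and stromal markers moved in both directions. Of 30 cholesterol and fatty acid synthesis genes, 1 was called lower, and the median was 0.05. Of 78 cytosolic ribosomal protein genes, 1 was called lower, Rpl39l, and the median was -0.21. The respiratory chain list gave 2 higher and 1 lower of 93, those being the isoform genes Cox6b2, Cox4i2 and Cox6a2. Of 20 immediate early genes, Klf4 rose (1.63 ± 0.04) and Ier3, Nr4a1, Atf3, Egr2 and Maff fell, while Fos was at 13.3 and 14.5 RPKM before and 18.7 and 20.2 RPKM after (0.49 ± 0.08). Among stromal markers, Pdgfra (20.4 and 20.7 and then 100.0 and 92 RPKM, 2.22 ± 0.05), Ly6a and Cxcl12 rose, and Nes (7.89 and 7.68 and then 0.777 and 0.751 RPKM, -3.19 ± 0.06) and Mcam (-2.72 ± 0.09) fell. Thy1, Eng, Nt5e and Cd44 stayed within 2-fold.

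Whether the response differed in KO cells was tested as the KO response minus the WT response. The cells of 3 mice were mixed for each genotype, so genotype and cell pool cannot be told apart. Of the 966 genes called higher in WT, 844 were called higher in KO, which is 87.4% of the WT calls and 63.5% of the 1329 genes of the rule called higher in KO. Of the 530 lower genes, 451 were called lower in KO, 85.1% of the WT and 36.3% of the 1244 KO calls. In opposite directions in the 2 genotypes was 1 gene, Gsn, which was listed at 0 in both differentiating KO libraries, so no KO change is given for it. The responses differed by over 2-fold with an adjusted p under 0.05 in 684 of the 11754 genes, against 6.17% of all genes tested. Among genes called higher in WT, the KO rise was larger in 141 and smaller in 28. Among genes called lower, the KO fall was larger in 85 and smaller in 26. The other 404 of the 684 genes were not called in WT. Over all 11754 genes, the KO response was above the WT response in 2.23% and below it in 3.59%.

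Among the 34 gene lists, the mitotic list held the most genes whose response differed between the genotypes. The median of the mitotic list was -0.84 in WT and -2.83 in KO, and the difference passed both limits in 50 of 51 genes, for example Aurka (-1.20 in WT and -3.19 in KO) and Top2a (-1.14 and -2.81). The same was so for 25 of 39 replication genes (medians -0.47 and -1.57) and 36 of 62 histone genes (medians -0.93 and -2.30). Over all 11754 genes the share was 5.82%. The difference passed in 7 of 25 glucocorticoid response genes, all with the larger rise in KO (medians 1.73 and 2.33). It also passed in 7 of 15 complement genes (medians 1.75 and 2.78), 4 of 14 adipogenic genes and 4 of 13 small leucine-rich proteoglycans. In each of these the KO response was above the WT response. The difference passed in 0 of 28 stress genes (medians -0.80 and -1.20) and in 1 of 12 osteoblast transcription factors, Sp7 (-1.25 in WT and -2.36 in KO). In the contractile list it passed in 8 of 25 genes, with the larger fall in KO (Acta2, -2.43 and -3.78).

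**Figure D5:**
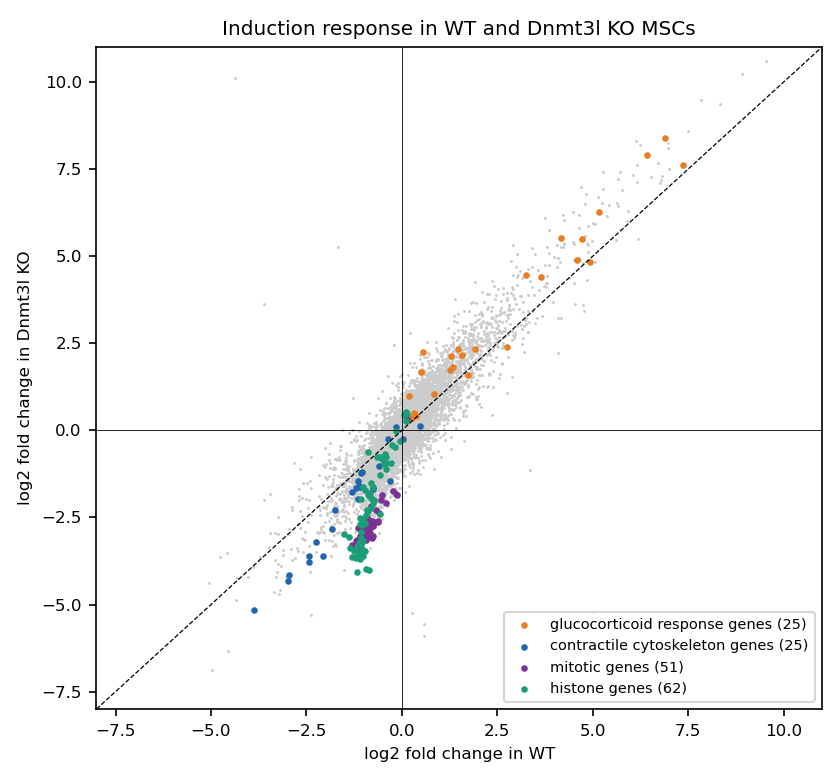
The log2 fold change on induction in WT (horizontal) and in Dnmt3l KO MSCs (vertical) for the genes of the rule, with the dashed line marking equal responses; 2 genes listed at 0 in a KO group lie outside the axes. Mitotic and histone genes fall below the line, with KO medians of -2.83 and -2.30 against -0.84 and -0.93 in WT, whereas glucocorticoid response genes lie near or above it.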

How the data were processed

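RNA-seq of 8 libraries was used, 2 per group. Per the paper's methods and the labels, the authors depleted ribosomal RNA, sequenced 50-base single-end reads, aligned them to mm10 with TopHat2 2.1.0 and estimated expression with Cufflinks 2.2.1. The deposited values are RPKM per gene, and other columns were not used. Values were taken as log2(RPKM + 0.1), and genes averaging 0.1 RPKM or more across all libraries were fitted with limma 3.58.1 (R 4.3.3; variance trend, a mean for each of 4 groups, two-sided, Benjamini-Hochberg over 15342 genes). Read depth was estimated as the number of reads, at which most low values of single-transcript genes came out whole within 0.05 reads (70.4% to 71.9% did, against 10% by chance). The fit was tested on simulated data.

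The members and the 34 gene lists were chosen with earlier results of these data known. The genes named are the 15 largest rises and falls on the log2 scale and the 10 largest in RPKM among called genes, the 10 most abundant per state, and members of the lists; some of these are not reported here. Motifs for interferon, ATF4, CArG, metal and antioxidant response sites were added after the values were seen. Gene positions are from GENCODE M21. Pseudocount, filter, scaling, block, fold limit and left-out libraries were varied.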

Additional observations from a re-analysis of the deposited data

Results flagged for a closer look

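The induction response differed between Dnmt3l KO and WT MSCs by over 2-fold in 684 of the 11754 genes (limma, adjusted p under 0.05), as the test of the difference itself. Of the 30 genes with the largest WT changes, 15 were among them. The values below are the KO minus the WT log2 response. Those of 1.05 sit at the fold limit. Before induction in WT, Serpina3m, Serpina3c, Fmo2 and Ace were near or under the pseudocount of 0.1 RPKM, on which their values depend. Among genes that rose in both genotypes, the KO rise was larger for Serpina3c (1.66), Sult1a1 (1.48), Serpina3m (1.31), Galnt15 (1.29), Fmo1 (1.13), Ace (1.11), Serpina3n (1.05) and Fmo2 (1.05). Among genes that fell in both, the KO fall was larger for Ppbp (-1.90), Ptgs2 (-1.78) and Ankrd1 (-1.31), and smaller for Cox6a2 (1.65), Lama1 (1.61), Car6 (1.13) and Slc16a3 (1.05). With 2 libraries in a group, single libraries were not tested for standing apart. Genotype and cell pool cannot be told apart in these differences.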

How the results depend on the processing

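The counts of 966 higher and 530 lower genes stayed within 1.5 times under every pseudocount, filter, scaling and left-out library tried; leaving out 1 library at a time gave 936 to 980 higher, 501 to 562 lower, 7214 to 8807 genes past the adjusted p and 624 to 756 genes whose response differed in KO, and the median log2 fold change ranged from -0.049 to -0.032. A fold limit of 1.5 gave 1801 higher, 1431 lower and 1929 with a different KO response, and no fold limit gave 3919, 4582 and 5531, since these settings admit smaller changes. A pseudocount of 1 gave 429 genes with a different KO response; the cause was not tested. The median of -0.038 was -0.077 after quantile normalization and -0.062 after median centring. Without genes listed at 0 in both libraries of a KO group, 680 genes had a different response. Whether replicate numbers pair the libraries is not stated. The deviations of replicate 1 correlated at -0.23 across genes between the WT states, which with 2 libraries per state does not settle it. The fit with a replicate block gave 964 higher and 530 lower genes. The crossed replicate block, chosen after seeing the data, gave 967 higher and 527 lower.

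No named gene reversed its direction where it was called. Calls were lost by Isg15, Enpp1, Mcm10, Uhrf1 and Rrm2 as described, and without 1 library also by C1qa, C1qc, Eno1, Nog, Pgam1, Rnu73b, Rpl39l and Srf. Isg15 was also not called without the RPKM minimum, without the variance trend or with the replicate block. Quantile normalization ended the calls of Actg1, Col5a2, Eno1, Nkd1, Nog, Pgam1, Plod2, Rpl39l and Tpm4, a pseudocount of 1 those of C1qa, C1qc, Cd14, Enpp1, Mcm10, Msx2, Nkd1, Nog, Srf, Tek, Uhrf1 and Wnt11, and an adjusted p limit of 0.01 those of C1qc, Isg15, Mcm10, Rnu73b and Uhrf1. Hspa5 was called lower without the differentiating replicate 2 library, and Lyz2 higher without the differentiating replicate 1 library. With 2 libraries per group the spread is poorly known, and a value of 0 in these files can be a failed estimate. RPKM is relative to the library, in which small RNA genes took 35.6% to 38.8% of the summed values.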

Other observations

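Of 15 clock genes, 1 was called higher (Per1) and 2 lower. Bhlhe40, a clock repressor, had 28.2 and 28.3 RPKM before and 6.55 and 6.82 RPKM after induction (-2.06 ± 0.07), and Ciart 4.71 and 4.2 RPKM before and 1.29 and 0.962 RPKM after induction (-1.91 ± 0.18). Of 13 metalloproteinases and their inhibitors, 2 were called higher and 2 lower.

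Markers of other lineages were few in the rule. Of 5 skeletal muscle and neural markers, Acta1, skeletal actin, fell from 33.9 and 34.9 to 3.28 and 4.0 RPKM (-3.21 ± 0.10), Tubb3, a neuronal tubulin, fell from 49.4 and 51.1 to 6.93 and 8.3 RPKM (-2.71 ± 0.18) and S100b rose from 3.39 and 3.07 to 9.15 and 9.05 RPKM (1.47 ± 0.06). Of 3 endothelial markers, Tek, the angiopoietin receptor, was called higher (0.583 and 0.686 and then 2.35 and 1.93 RPKM, 1.60 ± 0.15), a call that was lost with a pseudocount of 1, while the defining markers Pecam1 and Cdh5 were at most 0.0843 RPKM and Kdr was at 0.0620 and 0.0816 RPKM before and 0.584 and 0.566 RPKM after. Of the erythroid and platelet markers, 1 was in the rule, not called, and Hba-a1, Hba-a2, Hbb-bs and Gata1 were listed at 0 in all 4 WT libraries.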
